A study of Rattus norvegicus with 28 samples.

Results

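Brain-derived neurotrophic factor (Bdnf, ENSRNOG00000047466) and its receptor TrkB (Ntrk2, ENSRNOG00000018839) were followed across rat brains of 2 inbred strains and 3 stages of the estrous cycle. The 2 genes were taken by Ensembl identifier from the 32623 gene rows of the count matrix, whatever their values. Total RNA was sequenced from 28 whole brains of animals that had not been given alcohol. The strains were BN-Lx/Cub, of Brown Norway origin, and the spontaneously hypertensive SHR/OlaIpcv. Each strain gave 4 females at pre-estrus, 4 at estrus, 4 at post-estrus and 2 males, and the labels name no treatment and no age. The study asked how the estrous cycle acts on brain RNA in different genetic backgrounds.

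BDNF is a secreted growth factor of neurons that supports their survival and strengthens synapses. It binds TrkB, a receptor tyrosine kinase, and the Ntrk2 gene also makes truncated receptors that lack the kinase and are abundant in astrocytes. Bdnf has several promoters, each joined to its own 5′ exon, which is spliced to a shared exon that encodes the protein. Estradiol raises Bdnf RNA in some regions of the rat brain, and neuronal activity does so through promoters that bind CREB, the factor that recognises cAMP response elements. A whole brain mixes regions and cell types, so fewer cells of a type and less RNA per cell cannot be told apart here.

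Promoter windows are shown because Bdnf is transcribed from separated starts, and a change of start can alter transcript length, which was examined further on. Transcripts of like length from different starts would not be told apart in that way. The RefSeq starts were not linked to the deposited transcripts. RefSeq (GRCr8) places Bdnf on the plus strand at chr3:116619633-116670212 with 11 transcripts, and Ntrk2 at chr17:5560558-5875899 with 14. The build of the deposited files is not given in the sources used here, so these coordinates belong to RefSeq alone. RefSeq's table held 6 Bdnf windows, whose starts span 20225 bases, and 0 for Ntrk2. Both strands of the 250 bases upstream of each start were searched for TGACGT (cAMP response element core), TGACGTCA (full element), CACGTG (E-box), TGANTCA (AP-1) and the estrogen response element (GGTCA and TGACC, 3 bases apart). The core was found in 1 of 6 Bdnf windows and in 6.95% of all 33469 windows of 27457 genes. TGANTCA, a loose AP-1 pattern with any base at N, was found in 1 of 6 and in 6.34% of all windows. The other 3 motifs, present in 1.59%, 5.59% and 0.0239% of all windows respectively, were not found in the 6 windows. The full element contains the core. The 2 windows with a match are printed 5′ to 3′, with the matched letters in capitals. In the window at chr3:116637608-116637857 the core is read from the minus strand and its last printed base lies 31 bases upstream of the start. In the window at chr3:116621721-116621970 the match to TGANTCA reads TGAATCA and ends 146 bases upstream. The AP-1 consensus has C or G at N, so with A there it is a loose match only.
Bdnf window 4: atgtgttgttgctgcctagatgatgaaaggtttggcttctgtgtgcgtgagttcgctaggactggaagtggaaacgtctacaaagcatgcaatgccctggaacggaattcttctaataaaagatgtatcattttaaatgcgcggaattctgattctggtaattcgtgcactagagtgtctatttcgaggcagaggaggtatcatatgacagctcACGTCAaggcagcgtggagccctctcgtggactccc
Bdnf window 3: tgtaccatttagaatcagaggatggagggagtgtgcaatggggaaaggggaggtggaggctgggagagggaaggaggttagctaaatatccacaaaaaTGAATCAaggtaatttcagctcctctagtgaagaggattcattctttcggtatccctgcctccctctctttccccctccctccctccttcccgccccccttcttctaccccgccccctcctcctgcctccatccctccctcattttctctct

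Each library held between 43410562 and 90667237 expected counts, of which spike-in RNAs took 1.46% to 6.05%. The 8 most abundant gene rows held 34.8% to 50.7% of gene counts, with the higher shares in BN-Lx. Levels are given as CPM, counts scaled to the library's TMM-adjusted total, and Bdnf is compared with Ntrk2 only in TPM, which also allow for length. Of the 28 libraries, 15 carry the suffix b35 in the sample description and 13 carry b37. The labels do not say what the suffix marks, and it was treated as a possible batch. All 28 Bdnf values were whole numbers (100%), whereas 0% of the Ntrk2 values were, which is how RSEM writes a gene some of whose reads also fit elsewhere. Whether counting used strand is not given, so reads from antisense transcripts over either gene cannot be told apart.

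Ranked by CPM, which do not allow for length, Bdnf was a moderately expressed gene and Ntrk2 an abundant one. Bdnf averaged 2.07 TPM and Ntrk2 26.6 TPM over the 28 brains. In CPM, Bdnf at 15.5 lay above 61.4% of the 18134 genes kept for testing, and Ntrk2 at 297 above 98.8%. The deposited files list 8 transcripts for Bdnf and 3 for Ntrk2.

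Bdnf in the 4 BN-Lx pre-estrus brains measured 21.1, 11.6, 20.5 and 15.9 CPM. The BN-Lx estrus brains had 17.2, 11.4, 18.0 and 15.5 CPM. At post-estrus the BN-Lx values were 10.5, 11.7, 22.0 and 21.1 CPM. Each BN-Lx female stage thus spanned low and high brains, from 11.6, 11.4 or 10.5 CPM up to 21.1, 18.0 or 22.0 CPM. The BN-Lx males, at 13.3 and 14.1 CPM, lay inside the female range.
In SHR, pre-estrus brains had 11.2, 14.5, 10.0 and 12.4 CPM of Bdnf. Estrus brains of SHR measured 12.8, 19.8, 9.75 and 19.1 CPM. SHR post-estrus brains had 14.7, 10.9, 20.2 and 17.6 CPM. Pre-estrus was the narrowest female group of SHR, and its highest brain lay below 3 of the 4 BN-Lx pre-estrus brains. The SHR males had 19.4 and 16.6 CPM, both above every SHR pre-estrus female.

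Ordered by group mean, Bdnf was lowest in SHR pre-estrus at 12.0 ± 1.91 CPM (SD, n = 4) and next in BN-Lx males at 13.7 ± 0.615 (n = 2). SHR estrus (15.4 ± 4.89), BN-Lx estrus (15.5 ± 2.94), SHR post-estrus (15.8 ± 3.99) and BN-Lx post-estrus (16.3 ± 6.07) followed, with n = 4 each. The order ended with BN-Lx pre-estrus at 17.3 ± 4.42 (n = 4) and SHR males at 18.0 ± 2.04 (n = 2). Every pair of neighbours in that order overlapped in range. Over all 28 pairs of groups, 26 overlapped, and the 2 that did not each set SHR males against a lower group, BN-Lx males or SHR pre-estrus. Groups of 2 brains separate more easily than groups of 4, and the share of all genes with such separate pairs was not counted.

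**Figure D1:**
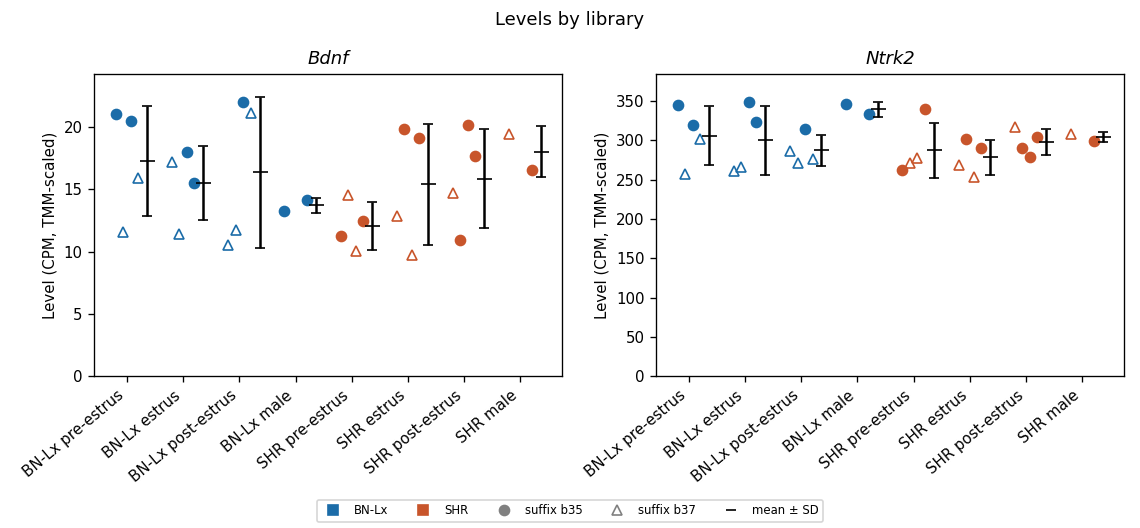
Levels of Bdnf (left) and Ntrk2 (right) in CPM for each of the 28 brains, by strain and stage; filled circles are libraries with suffix b35, open triangles b37, and bars give the group mean ± SD. Bdnf runs from 9.75 to 22.0 CPM with wide groups, whereas Ntrk2 stays between 253 and 349 CPM, and the open triangles tend to lie low in both panels.

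Ntrk2 varied much less. BN-Lx pre-estrus brains had 345.6, 257.5, 319.6 and 302 CPM. At estrus the BN-Lx values were 261.5, 266, 349 and 324 CPM. BN-Lx post-estrus brains measured 287, 271, 315 and 277 CPM. The 3 female stages shared the range from 271 to 315 CPM, and the BN-Lx males, at 346 and 333 CPM, were both above the post-estrus females.
SHR pre-estrus brains had 263, 271, 277 and 339.5 CPM of Ntrk2. Those at estrus had 268, 302, 253 and 291 CPM. SHR post-estrus values were 317, 291, 279 and 304 CPM. A single pre-estrus brain, replicate 8, exceeded every other SHR library. The SHR males had 309 and 299.5 CPM, inside the female range.

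Group means of Ntrk2 ran from 279 ± 22.2 CPM in SHR estrus (SD, n = 4), through BN-Lx post-estrus (287 ± 19.4), SHR pre-estrus (288 ± 35.1), SHR post-estrus (298 ± 16.4), BN-Lx estrus (300.1 ± 43.4), SHR males (304 ± 6.58, n = 2) and BN-Lx pre-estrus (306 ± 37.1), to BN-Lx males (339.6 ± 9.12, n = 2). No 2 neighbours in that order were separated in range. Of the 28 pairs of groups, 24 overlapped, and the 4 that did not set BN-Lx males above BN-Lx post-estrus, SHR estrus, SHR post-estrus or SHR males. The BN-Lx males are 2 b35 libraries, and the b35 BN-Lx females alone ran from 315 to 349 CPM. The share of all genes with such separate pairs was not counted.

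The spread of Bdnf between brains of a group was large for a gene of its level. Its pooled within-group SD was 0.388 on the log2 CPM scale, where counting alone would give about 0.05. That was more than the SD of 84.5% of the 5205 genes whose mean lay within 2-fold of it, whose median SD was 0.229. The highest brain had 2.26 times the Bdnf of the lowest. For Ntrk2 the SD was 0.141 with 0.011 from counting, above that of 21.6% of 566 genes of like level (median 0.202), and the highest brain had 1.38 times the lowest. The biological coefficient of variation estimated by edgeR was 23.1% for Bdnf and 10.8% for Ntrk2. Counting error was thus a small part of the spread of either gene.

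Between strains, neither gene passed the test in females. Bdnf was 16.4 ± 4.28 CPM in the 12 BN-Lx and 14.4 ± 3.87 CPM in the 12 SHR females (SD). The log2 fold change, SHR minus BN-Lx, was -0.24 ± 0.13 (SE), a fold of 0.847 with a 95% interval of 0.699 to 1.03 and an adjusted p of 0.341 by edgeR's quasi-likelihood test with Benjamini-Hochberg adjustment. Ntrk2 was 298 ± 32.5 against 288 ± 24.7 CPM, a fold of 0.953 (0.883 to 1.03, adjusted p 0.521 in the same test). In that comparison 1724 of 18134 genes (9.51%) were called. The miss does not show that the strains are alike, since the intervals reach down to 0.699 for Bdnf and 0.883 for Ntrk2.
The deposited TPM values, which are not TMM-scaled, gave nearly equal Bdnf means of 2.06 ± 0.702 in BN-Lx and 2.07 ± 0.455 in SHR females (SD, n = 12 each). For Ntrk2 they ran the other way from CPM, with 24.6 ± 4.6 TPM in BN-Lx and 28.3 ± 5.12 TPM in SHR, and neither TPM difference was tested.

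By stage, the strain difference of Bdnf was widest at pre-estrus. Bdnf in SHR was 0.715 of the BN-Lx level there, with a 95% interval of 0.513 to 0.997. Its unadjusted p was 0.048 and its adjusted p 0.467 in edgeR, and 453 genes (2.5%) were called. Of the 18134 genes, 1909 had an unadjusted p under 0.05 there. At estrus the fold was 0.97 (0.697 to 1.35) and at post-estrus 0.877 (0.624 to 1.23). For Ntrk2 the 3 folds were 0.942 (0.827 to 1.07), 0.931 (0.818 to 1.06) and 0.986 (0.862 to 1.13). Of all genes, 406 (2.24%) were called at estrus and 454 (2.5%) at post-estrus. None of these 6 values passed the threshold, with adjusted p from 0.467 to 0.982. In males the Bdnf difference pointed upward in SHR, with a fold of 1.5 (0.927 to 2.43, edgeR adjusted p 0.55) over 2 brains a strain, while Ntrk2 gave 0.948 (0.785 to 1.14). In males 145 genes (0.8%) were called. The Bdnf value in males, 0.58 on the log2 scale, was 0.27 once SHR male replicate 1 was left out, and leaving out SHR male replicate 2 gave 0.89.

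The level of Bdnf in SHR was lower in libraries with one 6-digit number than in those with another in the description, whose meaning the labels do not give. The sets were compared after their values were seen, with no test. All 4 SHR pre-estrus brains carry 201066, as do 1 estrus and 1 post-estrus brain, and these 6 libraries ran from 9.75 to 14.5 CPM. The 4 SHR libraries with 200317, 2 at estrus and 2 at post-estrus, ran from 17.6 to 20.2 CPM. These sets do not overlap, while the 3 libraries with 199890 (12.8 to 19.4 CPM) and the 1 library with another number (14.7 CPM) lie across or between them. All 4 libraries with 200317 carry the suffix b35, whereas those with 201066 carry b35 or b37. The 8 most abundant rows held 42.4% to 45.9% of gene counts with 200317 and 34.8% to 43.0% with 201066. How many of all genes separate these sets was not counted. At pre-estrus the number and the stage cannot be told apart in SHR, nor the number and the strain in the 0.715 fold. In BN-Lx, the 3 numbers that more than 1 library carries had overlapping ranges of Bdnf. With a block for the number, pooled Bdnf estrus minus pre-estrus was -0.28 on the log2 scale (edgeR adjusted p 0.412). In SHR a single estrus brain, replicate 6 at 9.75 CPM, shares its number with the pre-estrus brains, so that value leans on it.

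**Figure D2:**
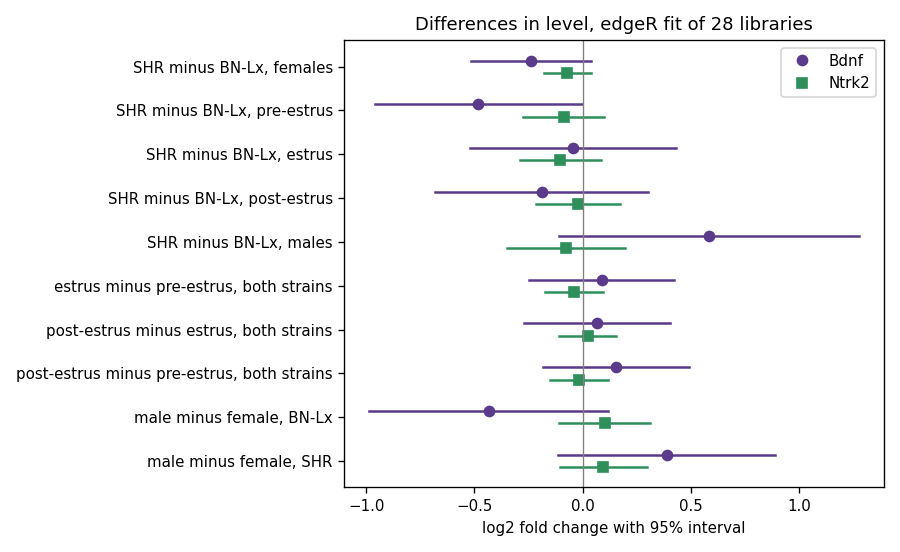
Log2 fold changes of Bdnf (circles) and Ntrk2 (squares) with 95% intervals from the edgeR fit of 28 libraries, for strain and for stage over both strains, and for sex within each strain. The Bdnf intervals are the wider ones, and of the 10 comparisons plotted the pre-estrus strain difference of Bdnf at -0.48 is the one whose interval, -0.962 to -0.005, leaves out 0 before adjustment. In that comparison 1909 of 18134 genes had an unadjusted p under 0.05.

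Both genes had lower values in libraries with suffix b37, though not past the threshold over all genes. With strain and stage in the fit, b37 minus b35 was -0.34 ± 0.13 (SE) on the log2 scale for Bdnf and -0.16 ± 0.05 for Ntrk2. Their adjusted p values over all genes were 0.481 and 0.349 in edgeR, against unadjusted values of 0.0185 and 0.00656. For the suffix 10 genes (0.0551%) were called, and 1459 of 18134 had an unadjusted p under 0.05. In BN-Lx females Ntrk2 did not overlap between the suffixes, with 315 to 349 CPM in the 5 b35 libraries and 258 to 302 CPM in the 7 b37 libraries. In SHR females it did, with 263 to 339.5 CPM in 7 b35 and 253 to 317 CPM in 5 b37 libraries. How many of all genes separate the suffixes in BN-Lx females was not counted. The suffix was a term in the edgeR and limma comparisons given here of all 28 libraries.

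Within the b35 libraries alone, Bdnf at pre-estrus was called lower in SHR, with a log2 difference of -0.81 (edgeR adjusted p 0.0417). It rests on 2 brains a strain, and 13.4% of the 18602 genes tested there were called, with 3.85% called lower in SHR. Within b37 the difference was -0.15 (adjusted p 0.893, 0.489% called). A fit with a term for each group and suffix put the b37 minus b35 difference between those 2 contrasts at 0.65 ± 0.45 (SE; edgeR adjusted p 0.313), so the strain difference was not shown to differ between suffixes. Over all females the Bdnf strain difference was -0.34 in b35 (adjusted p 0.133, 9.71% called) and -0.16 in b37 (adjusted p 0.906, 2.63% called). For Ntrk2 it was -0.14 in b35 and 0.05 in b37, with adjusted p of 0.253 and 0.942. The b37 minus b35 difference between these contrasts was 0.19 ± 0.27 (SE) for Bdnf and 0.19 ± 0.10 for Ntrk2, with edgeR adjusted p of 0.875 and 0.52 where 0.7% of genes were called.

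Stage was compared within each strain and over both. In BN-Lx the joint edgeR test of any stage difference gave adjusted p of 0.977 for Bdnf and 0.979 for Ntrk2, and in SHR 1 for both. No gene of the 18134 was called in either strain (0%), although 589 and 116 genes had an unadjusted p under 0.05. Over both strains the joint adjusted p was 1 for each member, and again 0 genes were called, with 291 at an unadjusted p under 0.05. The largest of the pooled Bdnf stage differences was post-estrus over pre-estrus, with a fold of 1.11 (0.882 to 1.41). Estrus over pre-estrus gave 1.06 (0.841 to 1.34) and post-estrus over estrus 1.05 (0.83 to 1.32). The Ntrk2 folds for these pairs were 0.988 (0.901 to 1.08), 0.973 (0.887 to 1.07) and 1.02 (0.926 to 1.11). All 3 Ntrk2 intervals thus lay between 0.887 and 1.11, and those of Bdnf between 0.83 and 1.41.

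Whether the stage differences themselves differed between the strains was tested next. The joint strain by stage test gave an adjusted p of 0.972 for both genes, with 0 genes called and 268 at an unadjusted p under 0.05. The widest single contrast was estrus over pre-estrus in Bdnf, where SHR exceeded BN-Lx by 0.44 ± 0.33 (SE, log2; edgeR adjusted p 0.914). In the b35 libraries it was 1.03 (adjusted p 0.0324), but 31.9% of all genes were called in that 2-against-2 contrast. Among b35, the SHR pre-estrus brains carry the number 201066 and the SHR estrus brains 200317. Stage and number thus cannot be told apart in the SHR part of that value. In b37 it was -0.18 (adjusted p 0.884, 0% called). The b37 minus b35 difference was -1.20 ± 0.64 (SE), with an edgeR adjusted p of 0.144 where 37.9% of genes were called.

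Male brains held less Bdnf than female brains in BN-Lx and more in SHR, without either difference passing the test. The male over female fold was 0.74 (0.504 to 1.09, edgeR adjusted p 0.843) in BN-Lx and 1.31 (0.925 to 1.85, adjusted p 1) in SHR. In each strain 6 genes (0.0331%) were called. The difference between these effects was 0.82 ± 0.37 (SE, log2), with an unadjusted p of 0.0342 and an adjusted p of 0.784, and 0 genes passed against 632 at an unadjusted p under 0.05. The SHR difference, 0.39 on the log2 scale with both males, was 0.06 once SHR male replicate 1 was left out, and leaving out SHR male replicate 2 gave 0.67. With a replicate block the BN-Lx difference was -1.30 (edgeR unadjusted p 0.047, adjusted p 0.177), against -0.43 without it, and the SHR difference -0.28. In that block the males share a number with a single female, BN-Lx estrus replicate 2, so both block values rest on that library. Both BN-Lx males are b35 libraries, whereas the SHR males are 1 of each suffix. Ntrk2 gave a male over female fold of 1.07 in each strain, with intervals of 0.928 to 1.24 in BN-Lx and 0.929 to 1.23 in SHR.

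The ratio of receptor to ligand was taken within each library from TPM, where any scaling of the library cancels. Ntrk2 exceeded Bdnf 12.8 ± 3.11-fold in BN-Lx females and 14.2 ± 3.4-fold in SHR females (SD, n = 12 each), with single brains from 8.82 to 18.7. The highest group mean was BN-Lx males at 16.6 ± 0.919 (n = 2), followed by SHR pre-estrus at 16.1 ± 2.65 (n = 4). SHR males had the lowest, 11.5 ± 1.01 (n = 2), and BN-Lx pre-estrus 12.1 ± 2.2 (n = 4). At pre-estrus the ratios ran from 12.7 to 18.6 in SHR and from 10.2 to 14.8 in BN-Lx, which overlap. The log2 ratio was 0.42 higher in SHR at pre-estrus (exact two-sided permutation p 0.0857, adjusted 0.823 over 10 tests). The smallest p that 4 against 4 brains allow is 0.0286. Over all females the difference was 0.14 (two-sided permutation p 0.329, adjusted 0.823).

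The level of Bdnf correlated with a measure of the RNA composition of the libraries. Over the 28 brains its log2 CPM correlated with the share of gene counts in the 8 most abundant rows at Pearson r 0.531 (two-sided permutation p 0.00343, adjusted 0.0103 over 3 relations) and Spearman rho 0.54 (adjusted 0.01). Without the 2 libraries farthest from the median share, r was 0.424. It was 0.806 among b35 and 0.335 among b37 libraries, 0.489 among BN-Lx and 0.602 among SHR females. For Ntrk2, r was 0.147 (permutation p 0.455) and rho 0.195. The permutation shuffled all 28 libraries regardless of strain and suffix, and how many of all genes relate as strongly to the share was not counted. That share was 46.5 ± 2.48% in BN-Lx and 41.4 ± 3.08% in SHR females (SD, n = 12 each) and was thus higher in the strain with the higher mean Bdnf CPM. With the share and that of the top row as covariates, the female strain difference of Bdnf was -0.01 on the log2 scale (edgeR adjusted p 0.973) and the pre-estrus difference -0.13 (adjusted p 0.82). Because the share itself differed between the strains, strain and composition cannot be told apart in that fit, and a cause was not tested.

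**Figure D3:**
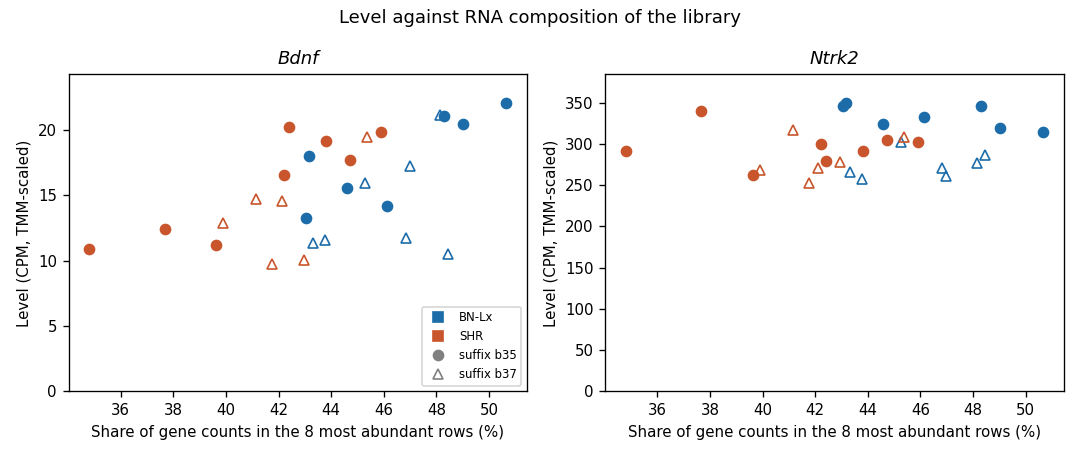
Level of Bdnf (left) and Ntrk2 (right) in CPM against the percentage of gene counts in the 8 most abundant rows, 1 point per brain, coloured by strain; filled circles are suffix b35 and open triangles b37. Bdnf is higher where that share is higher (r 0.531), most clearly among the filled circles (r 0.806), and Ntrk2 shows a weaker relation (r 0.147).

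Bdnf and Ntrk2 themselves correlated at r 0.427 over the 28 brains (two-sided permutation p 0.0244, adjusted 0.0366) and rho 0.448 (adjusted 0.0263). Without the 2 brains farthest from the median Ntrk2 level r was 0.47. Within suffixes it was 0.137 in b35 and 0.434 in b37, and within females 0.587 in BN-Lx and 0.352 in SHR, so little of it was seen in the b35 libraries. As a description over 28 libraries and 13994 genes of at least 1 CPM, the genes most like Bdnf in log2 CPM were ENSRNOG00000013135 (r 0.827), ENSRNOG00000013520 (0.82) and ENSRNOG00000009137 (0.817), while Ntrk2 was 3030th. Most like Ntrk2 were ENSRNOG00000005479 (r 0.787), ENSRNOG00000017990 (0.775) and ENSRNOG00000005667 (0.771), with Bdnf 460th. The files pair no symbols with these identifiers.

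RSEM's gene length is the mean of a gene's transcript lengths weighted by their estimated abundance in that library, and was read as a sign of transcript choice. For Bdnf it lay between 3899 and 4102 bases, and for Ntrk2 between 5757 and 6128 bases. Over the genes with several transcripts, 150 of 4789 (3.13%) changed length between strains in females in limma, and neither member was among them.

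Ntrk2 lengths in BN-Lx pre-estrus brains were 6128, 5947, 6087 and 5927 bases. BN-Lx estrus brains had 5984, 5869.9, 6017 and 6028 bases. At post-estrus the BN-Lx values were 5865, 5914, 6065 and 5899 bases. The 5 b35 libraries among them, at 6017 to 6128 bases, were all longer than the 7 b37 libraries, at 5865 to 5984 bases. The number of other genes whose lengths separate in this way was not counted.
In SHR the pre-estrus lengths were 5885, 5905, 6005 and 5915 bases. SHR estrus brains had 5921, 5972, 5757 and 6017 bases. The SHR post-estrus brains lay between 5900.5 and 5964 bases. In SHR the suffixes overlapped, with 5885 to 6017 bases in b35 and 5757 to 6005 in b37. The SHR males had 5851 and 5942 bases, and the BN-Lx males 6081 and 5938. All 28 pairs of groups overlapped for Ntrk2 length.

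Averaged over females, Ntrk2 length was 5978 ± 87.5 bases in BN-Lx and 5927 ± 68.0 in SHR (SD, n = 12 each), a difference of -50.9 bases (two-sided permutation p 0.126, adjusted 0.857 over 20 tests). With the suffix in a limma fit over 4789 genes the difference was -1.08% (95% interval -2.06% to -0.101%, unadjusted p 0.0324, adjusted p 0.332). Of those genes 1704 had a larger difference, and 586 had an unadjusted p under 0.05. By stage the difference in limma was -1.56% at pre-estrus (interval -3.21% to 0.115%), -0.983% at estrus (-2.64% to 0.705%) and -0.706% at post-estrus (-2.44% to 1.06%), where 0.919%, 0.543% and 0.48% of genes were called. In males it was -1.16% (-3.54% to 1.28%, 0.23% called). In b35 libraries alone the difference was -126.5 bases, with 5939 ± 46.8 in 7 SHR against 6065 ± 45.0 in 5 BN-Lx females (exact permutation p 0.00253, adjusted 0.0354). limma also called it there (adjusted p 0.0381), as it did 6.75% of 4744 genes. In b37 libraries it was -4.9 bases, 5910.4 ± 94.2 against 5915 ± 42.1 (exact permutation p 0.881). The difference between the suffixes was 0.030 ± 0.012 (SE, log2 length; limma unadjusted p 0.0222, adjusted p 0.272). Over both strains Ntrk2 length in b37 differed from b35 by -1.43% (interval -2.38% to -0.459%, limma adjusted p 0.233), with 7 genes (0.146%) called for the suffix. On the log2 scale the strain difference over both suffixes was -0.0157. With fragment length and the share of the 8 most abundant rows as covariates it was -0.0045 (limma adjusted p 0.939), and with a replicate block -0.0322 (limma unadjusted p 0.000265, adjusted p 0.0893).

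**Figure D4:**
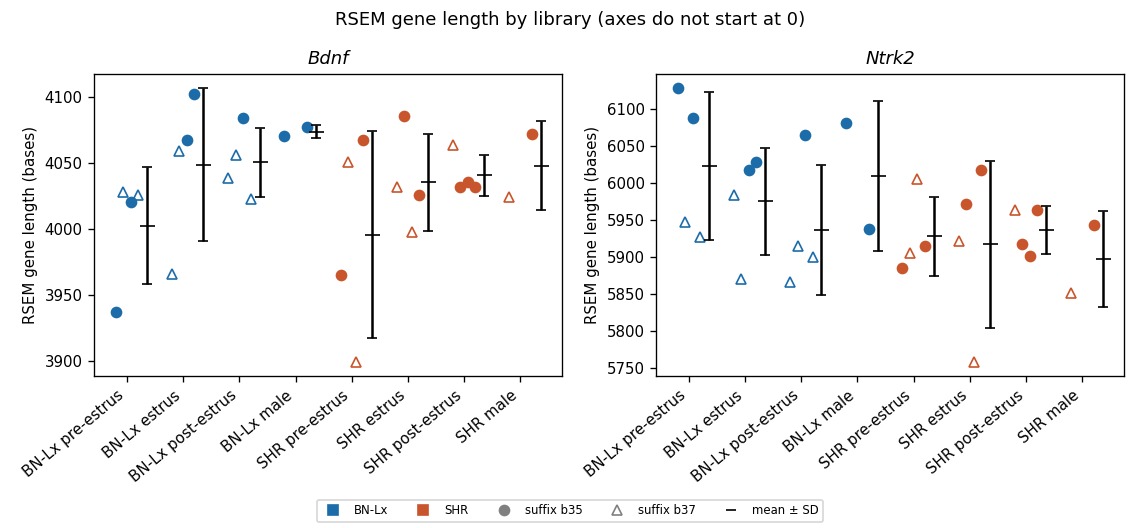
RSEM gene length in bases of Bdnf (left) and Ntrk2 (right) for each brain by strain and stage, with group mean ± SD; axes do not start at 0, filled circles are suffix b35 and open triangles b37. In BN-Lx females the 5 filled circles of Ntrk2 lie at 6017 bases or above and the 7 open triangles at 5984 or below. How many other genes separate in this way was not counted.

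Bdnf length differed less between strains, with 4034 ± 46.5 bases in BN-Lx and 4024 ± 50.5 in SHR females (SD, n = 12 each; two-sided permutation p 0.622, adjusted 1). It was lowest at pre-estrus in both strains. The BN-Lx pre-estrus brains had 3937, 4028, 4019.8 and 4025 bases and the SHR ones 3965, 4050.5, 3899 and 4067 bases. Post-estrus brains averaged 4050.3 ± 26.1 bases in BN-Lx, 47.9 more than pre-estrus (exact permutation p 0.0857, adjusted 0.857), and 4040.4 ± 15.4 in SHR, 45.0 more (exact permutation p 0.4, adjusted 0.971). Pooled over strains in limma the change from pre-estrus to post-estrus was 1.17% (interval -0.00705% to 2.36%; adjusted p 1, with 0 of 4789 genes called and 181 at an unadjusted p under 0.05). Male minus female length differences of Bdnf were 0.648% in BN-Lx and 0.651% in SHR (limma adjusted p 1 for both, with 1 gene, 0.0209%, called in each strain). Ranges of Bdnf length overlapped in 24 of 28 pairs of groups, and the share of all genes with as many overlaps was not counted.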

How the data were processed

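RNA was sequenced from 28 rat brains. Per the labels' protocols, total RNA was depleted of ribosomal RNA and made into stranded libraries, read as 2x100 paired ends with 4 libraries per lane. The protocol speaks of male rats, and grouping followed the sample labels, which name females and males. The tools were cutadapt and RSEM per the submitters' processing notes, which give no version. For aligner, build and annotation, nothing is given in the sources used here. Values in the deposited matrix are the authors' expected counts per gene, not normalized, which differed from the per-library files by at most 0.5. The authors' TPM and gene lengths came from those files, and the deposited FPKM values were not used.

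Expected counts were rounded, 92 spike-in rows left out, and genes kept by edgeR's filterByExpr (count minimum 10). One edgeR 4.0.16 quasi-likelihood fit (TMM, robust, R 4.3.3) had a term for each of 8 groups and for the suffix, which left 19 degrees of freedom. Benjamini-Hochberg adjustment ran over all 18134 genes of a comparison, and an adjusted p under 0.05 counted as a call. Female contrasts weighted the stages equally. Standard errors came from the F statistic and are approximate. Log2 CPM used a prior count of 2. Lengths were tested by permutation (scipy 1.17.1, 100000 resamples or exact) and, on the log2 scale, by limma 3.58.1 with the suffix term. DESeq2 1.42.0, voom, other scalings, blocks, covariates and left-out libraries were alternatives. The calculation was tested on simulated data.

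The genes, lists and tests were chosen with earlier results of these data known. Named genes were both members and the 3 genes most correlated with each. The 19 gene lists (165 entries, cell type markers included) could not be matched, since RefSeq's table had 0 rows with an Ensembl identifier, so brain markers were not checked. No 2 libraries of a group agreed within sampling noise (chi-square per degree of freedom 29.0 to 636 over 38 pairs), and neither member's row was identical to another. Each library was taken as 1 animal, per the labels' biological replicates. Depth gives a counting error of about 0.05 (log2) for Bdnf and 0.011 for Ntrk2. Intervals are at 95%.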

Additional observations from a re-analysis of the deposited data

Results flagged for a closer look

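Of 24 sets of 4 brains examined (level or length of either gene in each female group), 2 held a brain whose gap to its nearest neighbour was a larger part of the group's range than Dixon's 95% critical value. Chance gives about 1 such set in 20. BN-Lx pre-estrus replicate 3 had a Bdnf gene length of 3937 bases, where the other 3 brains lay between 4019.8 and 4028 bases (gap over range 0.915). SHR post-estrus replicate 12 had a Bdnf gene length of 4063 bases, where the others lay between 4031 and 4035 bases (0.872). The Bdnf level of these 2 brains, 21.1 and 14.7 CPM, was not set apart in the same way.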

How the results depend on the processing

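The alternatives were compared for strain, sex, pooled stage pairs, the joint tests, and length between strains in females. For Bdnf, the estrus minus pre-estrus and male minus female differences between strains were added. Stage pairs within a strain and other length contrasts were not compared. Among those compared, b35 libraries alone were the single alternative to bring a value of either gene past the threshold (-0.810 for Bdnf at pre-estrus, 1.026 for its estrus minus pre-estrus difference between strains, -126.5 bases and -0.0300 in log2 for Ntrk2 length in females), and the cause was not tested. All reversals were of values that had not been called, and the cause was not tested. On the log2 scale, b37 libraries alone gave 0.046 for the Ntrk2 strain difference in females, 0.150 for it at post-estrus, -0.044 for pooled Bdnf estrus minus pre-estrus, 0.081 for pooled Ntrk2 post-estrus minus pre-estrus and -0.177 for the Bdnf strain difference in estrus minus pre-estrus. The b35 libraries gave 0.216 for the Bdnf strain difference at estrus and -0.062 for pooled Ntrk2 post-estrus minus estrus. limma voom gave 0.031 for the Bdnf strain difference at estrus, 0.032 for Ntrk2 at post-estrus, and pooled Ntrk2 values of 0.015 (estrus minus pre-estrus) and 0.018 (post-estrus minus pre-estrus). RNA shares as covariates gave 0.137 for Bdnf between strains at post-estrus, and leaving out the suffix term 0.051 for Ntrk2 there. A block for the 6-digit number of the sample description gave pooled Bdnf values of -0.284 (estrus minus pre-estrus) and -0.024 (post-estrus minus pre-estrus) and -0.030 for Ntrk2 post-estrus minus estrus. In SHR a single estrus brain, replicate 6, shares its number with the pre-estrus brains. Strain contrasts could not be fitted with that block.

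Replicate numbers did not pair the samples: deviations of same-numbered brains of different groups correlated between -0.335 and 0.156, with 2 of 18 pairs over 0.1. For the 6-digit number of the sample description the 30 pairs ran from -0.384 to 0.471, with 13 over 0.1. With a replicate block, 7 residual degrees of freedom were left and 150 genes were called between strains in females, against 1724, and 474 in b37 libraries alone. The replicate block gave -0.311 for Bdnf and -0.102 for Ntrk2 there (edgeR adjusted p 1 for both), -0.283 for Bdnf male minus female in SHR and -1.297 in BN-Lx, -0.005 for pooled Bdnf estrus minus pre-estrus, pooled Ntrk2 values of 0.032, -0.017 and 0.015 for estrus minus pre-estrus, post-estrus minus estrus and post-estrus minus pre-estrus, and log2 lengths of 0.0052 for Bdnf and -0.0322 for Ntrk2. The male minus female values of that block rest on BN-Lx estrus replicate 2, the only female that shares a number with a male. The share of calls higher in SHR was 830 of 1724, and 1225 of 1806 in b35 libraries.

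Leaving out each library in turn brought neither gene past the threshold in the contrasts compared. Bdnf ran from -0.309 to -0.177 between strains in females, -0.662 to -0.392 at pre-estrus and -0.133 to 0.09 at estrus, where leaving out BN-Lx estrus replicate 2 or SHR estrus replicate 6 turned the sign. At post-estrus it ran from -0.321 (without BN-Lx post-estrus replicate 3) to -0.003 (without BN-Lx post-estrus replicate 6), in males from 0.273 to 0.891, and male minus female from 0.056 to 0.674 in SHR and -0.478 to -0.357 in BN-Lx. Pooled Bdnf post-estrus minus estrus ran from -0.034 to 0.149 and Bdnf length in females from -18.9 to 1.3 bases. Ntrk2 between strains ran from -0.183 to 0.035 in males and -0.126 to 0.019 at post-estrus, male minus female in SHR from -0.016 to 0.202, pooled post-estrus minus estrus from -0.019 to 0.05 and post-estrus minus pre-estrus from -0.059 to 0.014.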
